A study of Mus musculus with 2 samples.

Results

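The cells described here are the Pi16 and Scara5 fibroblasts of the mouse bladder, 3258 of the 11660 cells used, of which 460 came from the Tom+ library and 2798 from the Tom- library. Fibroblasts with these genes are known from the adventitia, the connective tissue around vessels and at the outer face of organs. In mouse they are described as a widely shared, progenitor-like fibroblast state marked by Pi16, often together with Dpp4, and are known for building microfibrils and for secreting chemokines. Where these cells lay in the bladder wall was not measured.

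Members were chosen from their own counts. A cell had to have at least 1000 UMIs (unique molecular identifiers, each a counted RNA molecule), at least 500 genes and under 15% mitochondrial UMIs. A barcode found in both libraries was used only where its copy was over 10 times deeper than the other. The collagen genes Col1a1, Col1a2 and Col3a1 and the proteoglycan gene Dcn had to reach 40 per 10000 UMIs together, with fewer than 2 UMIs of the endothelial genes Pecam1 and Cdh5 and the epithelial gene Epcam. These steps left 7140 fibroblasts, 920 Tom+ and 6220 Tom-. A member then had a UMI of at least 3 of the 5 genes Pi16, Tmem100, Pcolce2, Scara5 and Opcml and of fewer than 3 of the 5 genes Dpp4, Smpd3, Sema3e, Efhd1 and Prdm8. The 422 fibroblasts with at least 3 of Dpp4, Smpd3, Sema3e, Efhd1 and Prdm8 are called Dpp4 fibroblasts (29 Tom+ and 393 Tom-), and the remaining 3460 are called other fibroblasts (431 Tom+ and 3029 Tom-). Because the rule used these values, the differences of members from the other sets are given as a description.

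The bladder of 1 male mouse aged 25 months was profiled by droplet-based 3' single-cell RNA sequencing. Its genotype was p16-CreERT2/R26-LSL-tdTomato: a tamoxifen-dependent Cre recombinase under control of p16, the cell-cycle inhibitor encoded by Cdkn2a, and a tdTomato reporter at the Rosa26 locus that Cre switches on for good. Tamoxifen was injected on 5 days in a row and the bladder was taken 2 weeks later. Live cells without the leukocyte antigen CD45 were sorted into tdTomato-positive (Tom+) and tdTomato-negative (Tom-) cells, so both groups share the mouse, the genotype, the age and the tamoxifen. The mark records that p16-driven Cre was active around the treatment, not the p16 level at harvest.

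The Tom+ and Tom- libraries held 34455896 and 197232860 UMIs over 2783 and 13551 barcodes, with medians of 5774 and 10673 per barcode, and members had medians of 9440.5 and 11916.5. A total of 966 barcodes stood in both libraries, and 18 Tom+ members and 0 Tom- members carry such a barcode. Each group is 1 library, so no difference has a replicate check and no test between groups was possible. Levels are UMIs summed over the cells of a set and scaled to a common total (CPM), ratios have exact conditional binomial 95% intervals, and shares have exact Clopper-Pearson 95% intervals. These intervals cover counting error only.

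The label was checked on 6 marker genes, of which Mfap5 and Cd248 had no part in the rule. Pi16, a secreted peptidase inhibitor (chromosome 17, 29317680 to 29330593, plus strand), stood at 1722 CPM in Tom+ members and 1676 CPM in Tom- members, against 161 and 315 CPM in Tom+ and Tom- other fibroblasts. Scara5, a receptor that takes up ferritin (chromosome 14, 65666403 to 65764826, plus strand), stood at 707 and 686 CPM, against 79.0 and 100.1 CPM. Pcolce2, which enhances the trimming of procollagen (chromosome 9, 95637601 to 95698096, plus strand), stood at 533 and 453 CPM, against 31.8 and 14.8 CPM. Tmem100, a small membrane protein (chromosome 11, 90030348 to 90036508, plus strand), stood at 189.5 and 213 CPM, against 24.2 and 19.3 CPM. In both libraries all 4 lay well above the other fibroblasts, as the rule requires.

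Mfap5, a microfibril-associated glycoprotein (chromosome 6, 122505845 to 122529290, plus strand), stood at 887 CPM in Tom+ members and 869 CPM in Tom- members, against 130.2 and 146 CPM in other fibroblasts. Cd248, the mesenchymal surface glycoprotein endosialin (chromosome 19, 5068078 to 5070682, plus strand), stood at 438.5 and 414 CPM, against 84.4 and 101 CPM. Mfap5 was detected in 90% and 94.1% of Tom+ and Tom- members, and Cd248 in 85.7% and 88.2%. With every cell thinned to 2000 UMIs these shares were 67.2% and 67.8% for Mfap5 and 52.95% and 48.4% for Cd248. Urothelial cells, which should lack both genes, gave at most 1.26% at the same depth. Thinned in the same way, other fibroblasts had 23.96% and 24.79% in Tom+ and Tom- cells for Mfap5 and 14.06% and 19.92% for Cd248. All Dpp4 fibroblasts had 51.72% and 64.03% for Mfap5 and 44.83% and 60.46% for Cd248, the first of each from 29 Tom+ cells. In the Tom- library Cd248 was therefore seen in a larger share of Dpp4 fibroblasts than of members.

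Summed over these markers, members were not the highest set. The 6 markers summed to 4478 CPM in Tom+ members and 4310 CPM in Tom- members, against 4632 and 5564 CPM in all Dpp4 fibroblasts. In that comparison Pi16, Scara5 and Pcolce2 were slightly higher in Tom+ members, for example Pi16 at 1722 against 1590 CPM. With mesothelial-like cells (defined below) left out of the Dpp4 fibroblasts only, their sums were 8220 and 8321 CPM, the first from 16 Tom+ cells. These 6 genes mark the Dpp4 fibroblasts as well. Coordinates are from a GENCODE annotation of GRCm38, which is the mm10 build. At the edge of the rule, Tom+ cells with 3 of the 5 required genes (182 cells, members) had 1236 CPM of Pi16 and 487 CPM of Mfap5, and Tom+ cells with 2 of them (126 cells, not members) had 592 and 373 CPM. In the Tom- library the 940 cells just inside had 1017 CPM of Pi16 and 429 CPM of Mfap5, and the 1333 cells just outside had 624 and 254.5 CPM.

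**Figure D1:**
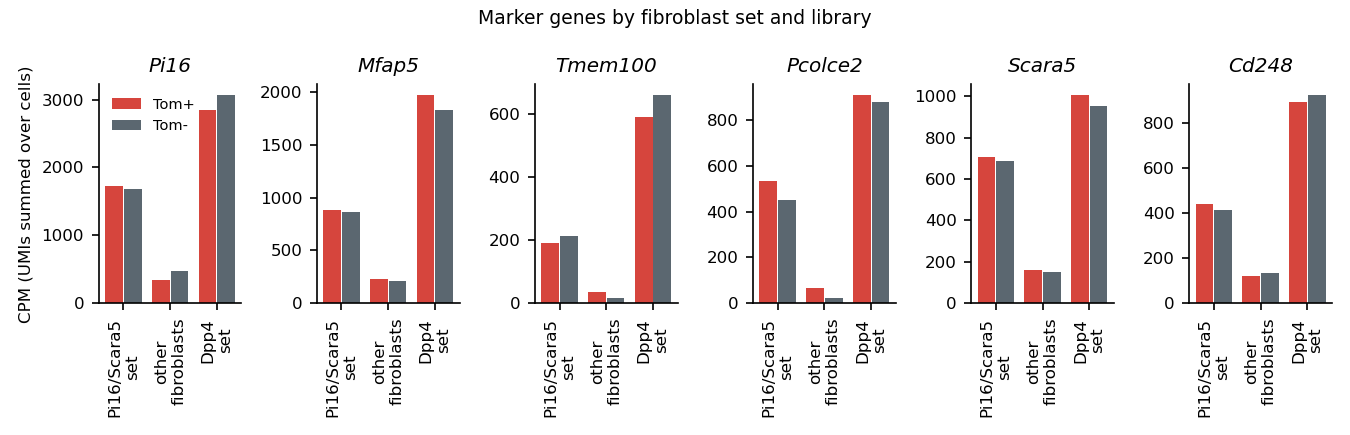
CPM of the 6 marker genes in Pi16/Scara5 fibroblasts (members), other fibroblasts and Dpp4 fibroblasts, with Tom+ (red) left of Tom- (grey) in each set; mesothelial-like cells were left out of the other 2 sets. In this comparison, with 16 Tom+ Dpp4 fibroblasts, members lie above other fibroblasts and below Dpp4 fibroblasts for all 6 genes. Pi16, for example, is at 1722 and 1676 CPM against 2844 and 3069 CPM in Dpp4 fibroblasts.

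Pcolce2, a gene of the rule, had 1 of the largest contrasts with other fibroblasts. Of 7 genes looked up, 3 had a promoter window. The region before the first exon of Pcolce2 is shown because only its window held bases before an annotated exon. It is the RefSeq promoter window of GRCm38.p6, chr9:95637378-95637600 on the plus strand, 223 bases ending at the base before the first annotated exon, with 60.1% G and C. Capitals mark the only match to the letters searched.
Pcolce2: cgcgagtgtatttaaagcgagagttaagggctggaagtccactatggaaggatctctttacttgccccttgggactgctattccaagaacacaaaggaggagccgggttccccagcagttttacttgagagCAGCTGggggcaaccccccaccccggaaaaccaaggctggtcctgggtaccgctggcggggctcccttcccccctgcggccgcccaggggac
The match is the E-box CAGCTG, a motif of basic helix-loop-helix factors, with 86 bases between it and the exon; 11.5% of the 32851 RefSeq windows of the same length hold it on either strand. The TATA box TATAAA, the KLF motif CCACACCC and the EBF core motif are not in this window, and 10.2%, 2.85% and 0.691% of windows hold them. The motifs were chosen after the sequence was seen.

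Against other fibroblasts, members had more RNA of the shared progenitor state and of microfibrils and less of collagen I, of contractile proteins and of several Wnt, BMP and Hedgehog modulators. Of 9261 genes measured, 236 were at least 2 times higher in members in both libraries (2.55%) and 519 at least 2 times lower (5.60%). The genes lowest in members against this set were mesothelial, such as Slpi, a secreted protease inhibitor, at 22.7 and 109.9 CPM in Tom+ and Tom- members against 1145 and 1407 CPM in other fibroblasts. Mesothelial-like cells, with a UMI of at least 2 of Msln, Upk3b, Lrrn4 and Gpm6a, made up 0.652% and 2.29% of Tom+ and Tom- members and 31.6% and 23.0% of other fibroblasts. The gene comparisons of the next paragraphs therefore leave them out of the other sets but not out of members, a choice made after seeing the data. It left 295 Tom+ and 2333 Tom- other fibroblasts, with 125 of 9142 measured genes at least 2 times higher in members (1.37%) and 229 at least 2 times lower (2.50%). The median log2 difference over all measured genes was -0.03 in each library.

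Of 31 measured genes of the universal and progenitor fibroblast list, 17 were at least 2 times higher in members and 0 lower, and the list median was 1.32 log2 in Tom+ cells and 1.58 in Tom- cells. This list holds Pi16 and Efhd1, which the rule used. Clec3b, which encodes the plasminogen-binding protein tetranectin, stood at 2123 and 1453 CPM in Tom+ and Tom- members, against 683 and 215 CPM in other fibroblasts. Cd34, a sialomucin of progenitor cells, stood at 1026 and 866 CPM, against 389.8 and 162 CPM. Thbd, which encodes the anticoagulant thrombomodulin, stood at 325 and 277 CPM, against 54.4 and 39.2 CPM. Thbd is not in the list, and all 3 genes lay higher in members in both libraries.

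The elastic fibre and microfibril list had 5 of 23 measured genes at least 2 times higher and 1, the crosslinking enzyme gene Lox, at least 2 times lower. Fbn1, the main structural protein of microfibrils, stood at 559 and 489 CPM in Tom+ and Tom- members, against 249.9 and 162 CPM in other fibroblasts. Efemp1, which encodes fibulin-3, stood at 901 and 912 CPM, against 378 and 294 CPM. Mfap5, Emilin2 and Adamtsl5 were the other 3. Of the IgLON adhesion proteins, Opcml stood at 129 and 118 CPM against 7.47 and 4.13 CPM, and Lsamp, not used by the rule, at 50.4 and 58.4 CPM against 9.96 and 10.4 CPM. Both hyaluronan synthase genes Has1 and Has2 were at least 2 times higher in members too, Has2 at 39.5 and 34.6 CPM against 6.64 and 10.6 CPM.

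Collagen genes ran the other way, with 0 of 21 measured at least 2 times higher in members and 4 lower, and list medians of -0.88 and -0.73 log2 in Tom+ and Tom- cells. Col1a1 stood at 1970 and 2626 CPM in Tom+ and Tom- members, against 5073 and 7146 CPM in other fibroblasts, and Col1a2, Col6a3 and Col12a1 were the other 3. Col1a1 and Col1a2 were among the genes that gated all fibroblasts. In the contractile and TGF-beta list 5 of 22 genes were at least 2 times lower and 0 higher. Acta2, the smooth muscle actin of myofibroblasts, stood at 45.6 and 59.9 CPM in Tom+ and Tom- members, against 325 and 505 CPM in other fibroblasts. Tagln, Myl9, Tpm2 and Actn1 were the other 4, and 7 of 10 measured smooth muscle markers were lower with them, summing to 189 and 243 CPM in members over the whole list, against 1018 and 1754 CPM. The part of smooth muscle RNA in this difference was not tested.

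Of 46 measured genes in the Wnt, BMP, Hedgehog and growth factor list, 5 were at least 2 times higher and 10 at least 2 times lower. Wnt4, a Wnt ligand, stood at 33.0 and 78.1 CPM in Tom+ and Tom- members, against 617 and 348 CPM in other fibroblasts. Hhip, which binds and holds Hedgehog ligands, stood at 4.71 and 29.5 CPM, against 117 and 331 CPM. Wnt10b and the activin antagonist gene Fst were among the 5 that were higher, Fst at 31.1 and 18.6 CPM against 5.81 and 5.43 CPM. Of the chemokine genes, Ccl11, which encodes the eosinophil attractant eotaxin, was higher in members at 86.2 and 70.3 CPM, against 36.1 and 13.6 CPM. Cxcl14, a chemokine of epithelia and stroma, was lower at 24.6 and 357 CPM, against 913 and 2663 CPM. Ackr3, the scavenging receptor for Cxcl12, was at 198 and 165 CPM, against 78.9 and 51.3 CPM. Cxcl12 itself, at 689 and 398 CPM against 553 and 299.6 CPM, did not reach a 2-fold difference. With mesothelial-like cells kept, other fibroblasts had 260 and 197 CPM, and Cxcl12 was 2.65 and 2.02 times higher in Tom+ and Tom- members.

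**Figure D2:**
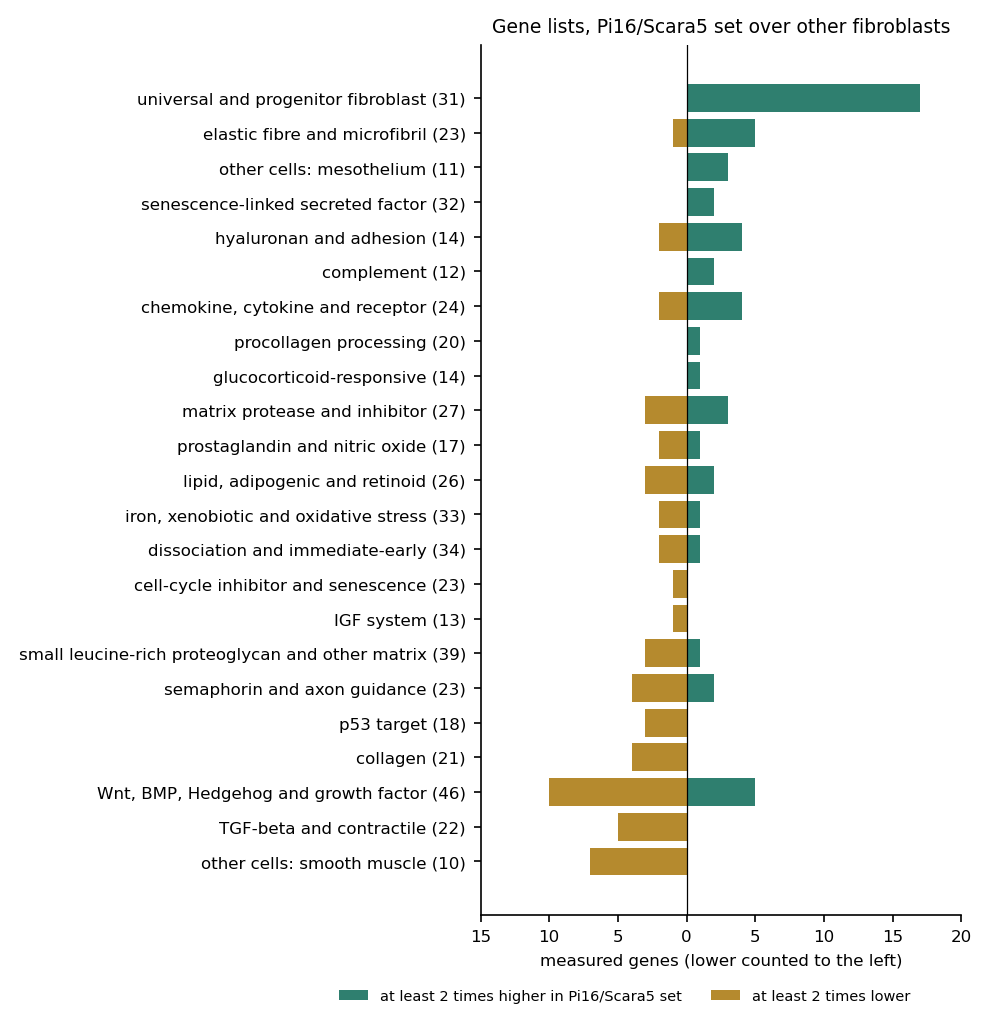
For each gene list with at least 10 measured genes (number in brackets), the count at least 2 times higher (green, right) or lower (brown, left) in Pi16/Scara5 fibroblasts than in other fibroblasts without mesothelial-like cells, in both libraries. The universal and progenitor list has 17 higher and 0 lower, and the collagen list 0 higher and 4 lower.

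Against the nearest set, the Dpp4 fibroblasts without mesothelial-like cells (16 Tom+ and 276 Tom- cells), members had less of the progenitor genes and more of several Wnt, BMP and Hedgehog genes. Of 9037 measured genes, 280 were at least 2 times higher in members in both libraries (3.10%) and 250 at least 2 times lower (2.77%), with only 16 Tom+ cells behind each. With the mesothelial-like cells kept these were 236 of 9235 (2.56%) and 453 (4.91%). The universal and progenitor list had 15 of 32 measured genes at least 2 times lower in members and 1, the basement membrane collagen gene Col15a1, at least 2 times higher. With the mesothelial-like cells kept, 9 of 32 were lower and 2 higher. The list holds Efhd1, one of the genes that chose the Dpp4 fibroblasts. Depth differed between the sets too, and Dpp4 fibroblasts had medians of 19140 and 19222 UMIs. Its part in these differences was not tested.

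Igfbp5, which binds insulin-like growth factors, stood at 163 and 249.6 CPM in Tom+ and Tom- members, against 1813 and 2651 CPM in Dpp4 fibroblasts. Edn1, the precursor of the vasoconstrictor endothelin-1, stood at 0.614 and 2.96 CPM, against 59.9 and 99.9 CPM. On the other side, Mgp, an inhibitor of calcification, stood at 6961 and 5397 CPM, against 521 and 957 CPM. Cxcl12 was at 689 and 398 CPM, against 89.9 and 109.5 CPM, and the complement gene C7 at 159.7 and 100.6 CPM, against 11.99 and 14.7 CPM. Ccl11 ran the other way, at 86.2 CPM in Tom+ members and 70.3 CPM in Tom- members, against 620 and 509 CPM. Of 25 measured chemokine, cytokine and receptor genes 4 were at least 2 times higher in members and 5 lower. Of the growth factor list 12 of 44 measured genes were at least 2 times higher in members, among them the Hedgehog receptor and target genes Ptch1, Gli1 and Hhip and the ligand gene Bmp4, and 6 were lower.

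The sort was checked on the reporter. tdTomato stood at 1784 CPM in Tom+ members and 17.4 CPM in Tom- members, a ratio of 103 (94.6 to 112). The reporter had a UMI in 97.6% of Tom+ members and 16.8% of Tom- members, and in 89.3% and 3.20% after thinning to 2000 UMIs.

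Of the members, 14.1% were Tom+ (12.9% to 15.4%), against 6.87% of Dpp4 fibroblasts (4.65% to 9.72%) and 12.5% of other fibroblasts (11.4% to 13.6%). Both comparison sets keep their mesothelial-like cells here, 136 Tom+ and 696 Tom- among other fibroblasts and 13 and 117 among Dpp4 fibroblasts. With them kept, the interval of members does not meet that of Dpp4 fibroblasts and overlaps that of other fibroblasts. Without them there were 295 Tom+ and 2333 Tom- other fibroblasts and 16 Tom+ and 276 Tom- Dpp4 fibroblasts. No interval was computed for these counts. The overlap with other fibroblasts is therefore stated only with the mesothelial-like cells kept, and whether it remains without them was not tested. Members were 50% of Tom+ fibroblasts (46.7% to 53.3%) and 45.0% of Tom- fibroblasts (43.7% to 46.2%). How many cells of each kind were sorted sets these shares, and the depths of Tom+ and Tom- fibroblasts differed.

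Cdkn2a, the gene whose promoter activity the mark reports, was rare in members of both libraries. It had 28 UMIs in 7 of 460 Tom+ members and 68 UMIs in 33 of 2798 Tom- members, which is 5.73 and 1.92 CPM and a ratio of 2.99 (1.85 to 4.70). It was under the 10 CPM minimum for a measured gene. The ratio rests on barcodes found in both libraries. Without them 7 UMIs in 4 of 442 Tom+ members remained, or 1.61 CPM, against 1.92 CPM in Tom- members. A Cdkn2a UMI was seen in 1.52% of Tom+ members (0.614% to 3.11%) and 1.18% of Tom- members (0.813% to 1.65%), against 6.497% and 5.81% of other fibroblasts and 0.194% and 0.653% of urothelial cells. After thinning to 2000 UMIs it was 0.438% and 0.144% of Tom+ and Tom- members, against 0% and 0.109% of urothelial cells. Other fibroblasts, with mesothelial-like cells kept, stood at 16.6 and 14.8 CPM and held more Cdkn2a RNA than members in both libraries.

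Cdkn1a, which encodes the inhibitor p21, stood at 193 CPM in Tom+ members and 157 CPM in Tom- members, a ratio of 1.23 (1.15 to 1.32). The difference is larger than the counting error and under the 1.5-fold used to call a gene. In other fibroblasts the Cdkn1a ratio was 0.703 (0.626 to 0.786) and in Dpp4 fibroblasts 2.14 (1.72 to 2.64), with mesothelial-like cells kept. Without those cells Cdkn1a was lower in Tom+ cells of both sets. It stood at 98.4 and 119.7 CPM in Tom+ and Tom- other fibroblasts and at 59.9 and 98.5 CPM in Dpp4 fibroblasts. In the cell-cycle inhibitor and senescence list 1 of 22 measured genes was called, the proliferation marker Mki67, whose 70 Tom+ UMIs came from 2 cells. The 6 markers of the set differed little between libraries, with ratios between 0.889 for Tmem100 and 1.18 for Pcolce2.

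Between Tom+ and Tom- members, 107 of 8912 measured genes were at least 1.5 times higher in Tom+ (1.20%) and 160 at least 1.5 times lower (1.80%), and the median log2 ratio of all measured genes was 0.01. Without barcodes found in both libraries these were 87 and 198, of which 73 and 146 were among the genes called with them. The genes higher in Tom+ included a potassium channel, both subunits of the nitric oxide receptor, chemokines and matrix proteins. Kcnn3, a calcium-activated potassium channel, had the highest ratio among the 24 genes chosen by their ratio, at 50.4 CPM in Tom+ members and 15.7 CPM in Tom- members, or 3.21 (2.75 to 3.73). Gucy1a1, part of the guanylate cyclase that senses nitric oxide, stood at 105 and 37.9 CPM, or 2.78 (2.51 to 3.08), and its partner Gucy1b1 at 24.8 and 9.31 CPM. Dner, a Notch ligand of neurons, stood at 106 and 41.3 CPM, or 2.58 (2.33 to 2.85). All 4 were among the leading genes of 1 sub-cluster described below, and Dner was also among those of another.

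The matrix genes Smoc2 and Matn2 stood at 400.0 and 649.5 CPM in Tom+ members, against 197 and 357 CPM in Tom- members. F3, which encodes tissue factor, the starter of clotting, stood at 199.8 and 109.4 CPM, or 1.83 (1.70 to 1.96). Cd55, which shields cells from complement, stood at 905 and 504 CPM, or 1.80 (1.74 to 1.86), and C7 at 159.7 and 100.6 CPM. Plod2, Adamtsl3, Svep1 and Bmp6 had ratios between 1.59 and 1.74.

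Cxcl12, a chemokine that retains leukocytes and progenitors through the receptor Cxcr4, stood at 689 CPM in Tom+ members and 398 CPM in Tom- members, or 1.73 (1.67 to 1.80). It was detected in 79.1% of Tom+ members and 74.0% of Tom- members, and in 54.5% and 38.3% after thinning, against 0.194% and 0.600% of urothelial cells. Its scavenging receptor gene Ackr3 had a ratio of 1.20 (1.12 to 1.28). Cxcr4 had 0 UMIs in Tom+ members, which allows a share of up to 0.652% of cells with a UMI, and 7 UMIs in Tom- members. Of 24 measured chemokine, cytokine and receptor genes 5 were at least 1.5 times higher in Tom+ members and 3 lower. Besides Cxcl12 the 5 were the B cell attractant Cxcl13 at 25.6 and 11.3 CPM, Ccl2 at 30.5 and 18.0 CPM, Ccl7 at 14.9 and 8.85 CPM, and the scavenging receptor gene Ackr2 at 17.6 and 6.54 CPM.

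Cxcl14 had one of the largest differences downward, at 24.6 CPM in Tom+ members and 357 CPM in Tom- members, or 0.0688 (0.0570 to 0.0824), with a UMI in 5.22% and 31.6% of cells. Urothelial cells had a Cxcl14 UMI in 2.14% of Tom+ and 20.5% of Tom- cells, and in 0.194% and 1.69% after thinning. The part of RNA from outside the cells in this difference was not tested. The ratio was also low in other fibroblasts, at 0.263, and in Dpp4 fibroblasts, at 0.293, with mesothelial-like cells kept. Car3, a carbonic anhydrase abundant in fat and muscle, stood at 2.46 and 144.5 CPM, or 0.0170 (0.00878 to 0.0297). Cck, the peptide hormone cholecystokinin, stood at 8.19 and 54.1 CPM, or 0.151 (0.108 to 0.207). Of its 40 Tom+ UMIs 18 came from 1 cell; its log2 ratio of -2.58 was -3.28 without the top cell of each library and -3.24 without barcodes found in both libraries. The adipocyte-defining genes Adipoq and Cidec were at 0 in members of both libraries, and Plin1 was at 0 in Tom+ and at 0.113 CPM in Tom- members.

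In the Wnt, BMP, Hedgehog and growth factor list 10 of 42 measured genes were at least 1.5 times lower in Tom+ members and 3 higher, with a list median of -0.09 log2. Wnt4 stood at 33.0 CPM in Tom+ members and 78.1 CPM in Tom- members, or 0.422 (0.358 to 0.495). The Wnt inhibitor gene Dkk2 stood at 0.819 and 36.8 CPM, Hhip at 4.71 and 29.5 CPM and Bmp5 at 6.96 and 28.4 CPM. Dkk2 and Hhip were concentrated in 1 group of 102 Tom- and 0 Tom+ members, a sub-cluster made on all genes. They stood there at 411 and 343 CPM, against 15.4 and 12.2 CPM in the rest of members. Sfrp4, a secreted Wnt antagonist, stood at 64.9 and 116 CPM, or 0.559 (0.497 to 0.627). Its log2 ratio of -0.83 was -1.78 without barcodes found in both libraries, and that of Spon1 was -1.65 instead of -0.95. Asz1, Spon1, Pla2g7, Ptgs1, Col12a1 and Bglap2 had ratios between 0.489 and 0.616, and Bglap2 has a near-identical neighbour, Bglap, with which reads may be shared.

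**Figure D3:**
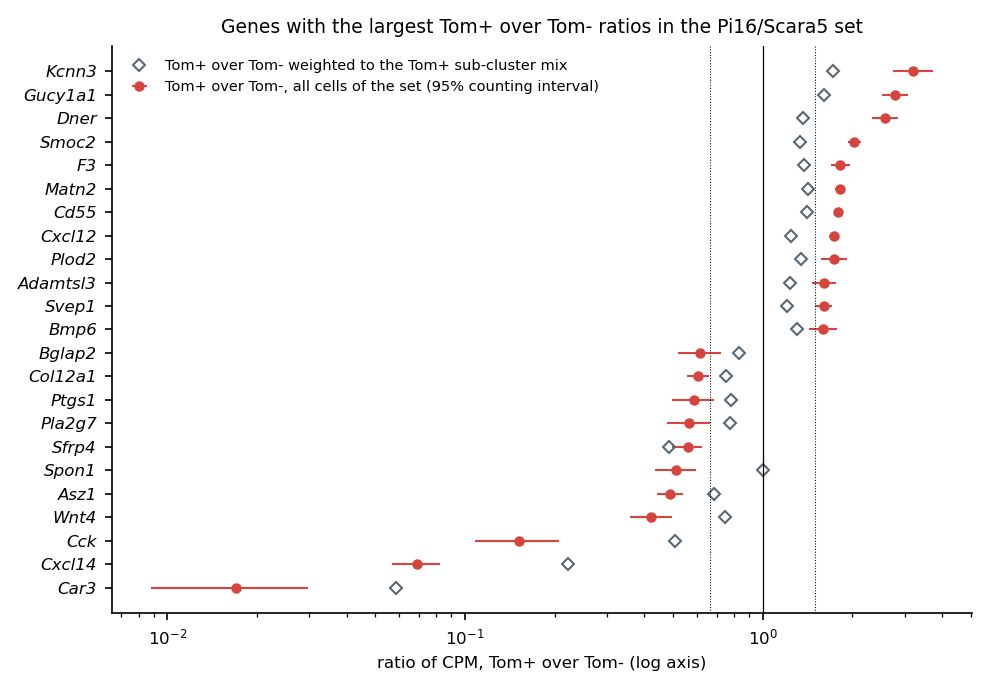
Ratio of CPM, Tom+ over Tom- (log axis), for genes with the highest and lowest ratios in Pi16/Scara5 fibroblasts. Red points are all cells of the set with 95% counting intervals, open diamonds the same ratio with Tom- cells weighted to the Tom+ sub-cluster mix, and dotted lines 1.5 times higher and lower. Most diamonds lie closer to 1, for example Cxcl12 at 1.25 instead of 1.73 and Kcnn3 at 1.73 instead of 3.21.

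Markers of other cells moved with the lower calls. The mesothelial list had 9 of 11 measured genes at least 1.5 times lower in Tom+ members, summing to 158 CPM in Tom+ and 379 CPM in Tom- members over the list. All 8 measured urothelial genes were lower (103 and 231 CPM in sum), 3 of which, Krt8, Krt18 and Krt19, are in the mesothelial list too. The erythroid list summed to 44.2 CPM in Tom+ and 4273 CPM in Tom- members, and the haemoglobin gene Hbb-bs was at 23.5 and 2220 CPM. The defining genes of leukocytes summed to 1.84 and 0.959 CPM, with Ptprc and Cd3e at 0 in Tom+ members, and those of endothelium to 8.60 and 14.3 CPM. Without the 3 Tom+ and 80 Tom- members that carried mesothelial or erythroid RNA, a choice made after seeing the data, all 24 genes chosen by their ratio kept a 1.5-fold difference in the same direction, with 96 genes higher and 135 lower in all.

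Members were not of one kind. Clustered on all genes they fell into 9 sub-clusters; clustered again without the 283 genes that were named or at least 1.5 times different between Tom+ and Tom- members, they fell into 8, numbered 0 to 7, which are used here so that those genes do not set the groups. Sub-cluster 0 (83 Tom+ and 511 Tom- cells) led with Efhd1, Postn, Ebf2 and Tmem100, and sub-cluster 3 (90 and 584) with Bglap2, Pex5l and Col8a1. Sub-cluster 1 (81 and 429) led with Apoe, Lgr5 and Cxcl12, and sub-cluster 2 (135 and 330) with Stc2, C1qtnf3, Kcnn3, Gucy1a1 and Dner. Sub-cluster 4 (18 and 568) led with Car3, Cxcl14, Cck and Dkk2, and sub-cluster 5 (50 and 293) with Cilp, Sult1e1 and Sfrp4. Sub-clusters 6 (3 and 70 cells, led by Slpi and Msln) and 7 (0 and 13 cells, led by Alas2) carried mesothelial and erythroid genes. Leading genes were chosen from the same cells and are a description.

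The libraries differed most in sub-clusters 2 and 4. Sub-cluster 2 made up 29.3% of Tom+ members (25.2% to 33.7%) and 11.8% of Tom- members (10.6% to 13.1%). Sub-cluster 4 made up 3.91% of Tom+ members (2.34% to 6.11%) and 20.3% of Tom- members (18.8% to 21.8%). Sub-clusters 0, 1, 3 and 5 took similar shares in both, for example 18.0% of Tom+ members and 18.3% of Tom- members in sub-cluster 0, and their intervals overlap. Clustering on all genes placed 26.3% of Tom+ and 9.19% of Tom- members in the sub-cluster led by Kcnn3 and C1qtnf3. It also set apart a sub-cluster of 102 Tom- and 0 Tom+ members led by Car3, Tnc, Hhip and Dkk2, of which 101 lay in sub-cluster 4.

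**Figure D4:**
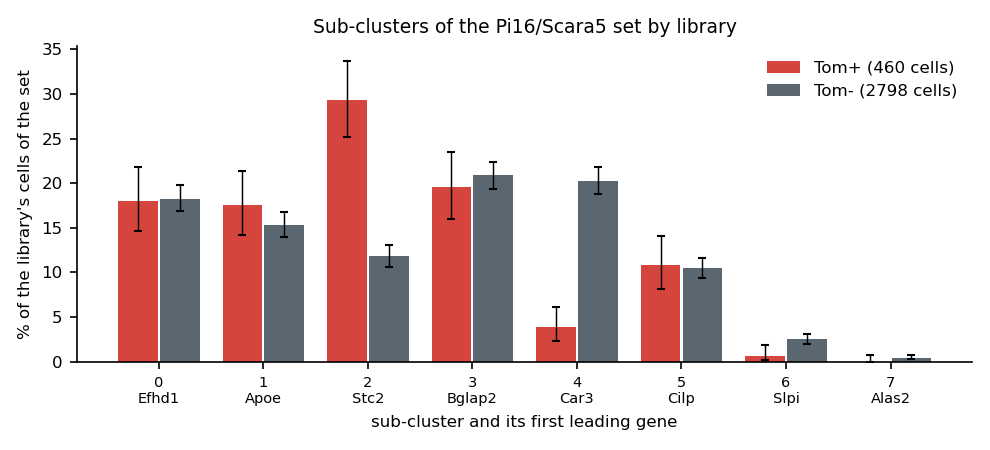
Share of each library's Pi16/Scara5 fibroblasts in the 8 sub-clusters made without the genes that differ between libraries; Tom+ (red) left of Tom- (grey), bars with exact 95% intervals. Sub-cluster 2 holds 29.3% of Tom+ and 11.8% of Tom- cells, and sub-cluster 4 holds 3.91% and 20.3%.

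Marker levels differed between sub-clusters more than between libraries. Pi16 was highest in sub-clusters 0 and 3, at 2432 and 2379 CPM in Tom+ cells and 2358 and 2413 CPM in Tom- cells, and lower in sub-cluster 5, at 593 and 716 CPM in Tom+ and Tom- cells. Among sub-clusters 0 to 5 Mfap5 was highest in sub-cluster 0, at 1657 and 1735 CPM in Tom+ and Tom- cells, and lowest in sub-cluster 4, at 411 and 470.3 CPM. Gdf10, a BMP antagonist of the TGF-beta family, and Penk, the enkephalin precursor, lay mainly in sub-cluster 5, at 364 and 327 CPM in Tom+ cells and 409 and 315 CPM in Tom- cells. The neuropeptide Y receptor gene Npy1r was highest in sub-cluster 3, at 1306 and 1160 CPM in Tom+ and Tom- cells.

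Cxcl12 was concentrated in sub-clusters 1 and 2. In sub-cluster 2 it stood at 1538 CPM in Tom+ cells and 1045 CPM in Tom- cells, or 1.47 (1.39 to 1.56), and in sub-cluster 1 at 890 and 966 CPM, or 0.921 (0.847 to 1.0001). In sub-cluster 3 it stood at 416 and 267 CPM, or 1.56 (1.40 to 1.73), and in sub-clusters 0, 4 and 5 the interval of the ratio held 1. With Tom- cells weighted to the Tom+ mix of sub-clusters, Cxcl12 in Tom- members was 552 CPM, against 398 CPM unweighted, and the ratio was 1.25 instead of 1.73. In the same way the ratio of Kcnn3 was 1.73 instead of 3.21, of Dner 1.36 instead of 2.58, of Cd55 1.41 instead of 1.80 and of Cxcl14 0.222 instead of 0.0688. With equal weight for each of sub-clusters 0 to 5, 6 of the 24 genes chosen by their ratio kept a 1.5-fold difference in the same direction.

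Cxcl14 was lower in Tom+ cells within each of those 6 sub-clusters, at 427 CPM in Tom+ cells and 1624 CPM in Tom- cells of sub-cluster 4, or 0.263 (0.208 to 0.327). In sub-cluster 0 its levels were low in both libraries, at 1.02 and 16.3 CPM. Cd55 was higher in Tom+ cells of sub-clusters 0 to 3, with ratios from 1.38 to 1.67, and its intervals held 1 in sub-clusters 4 and 5. Cdkn1a was higher in Tom+ cells of sub-clusters 0, 1, 3 and 4, with ratios of 1.53, 1.49, 1.29 and 1.99, and lower in sub-cluster 5, at 0.680 (0.460 to 0.975). Sub-cluster 5 held 22 of the 28 Cdkn2a UMIs of Tom+ members and 25 of the 68 of Tom- members, or 30.4 and 5.42 CPM; as given above, 7 Tom+ UMIs in all came from barcodes found in 1 library only.

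**Figure D5:**
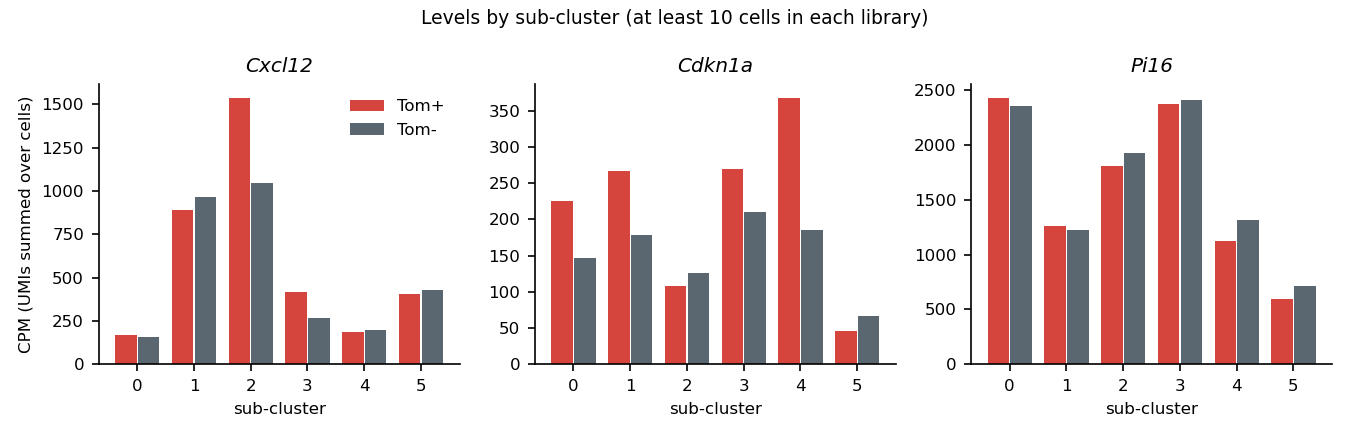
CPM of Cxcl12, Cdkn1a and Pi16 in sub-clusters 0 to 5, which have 10 or more Tom+ and Tom- cells, Tom+ (red) left of Tom- (grey). Cxcl12 reaches 1538 and 1045 CPM in sub-cluster 2 and stays under 200 CPM in sub-clusters 0 and 4, and Pi16 is highest in sub-clusters 0 and 3.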

How the data were processed

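The deposited files held 1 matrix per library with raw UMI counts per gene and barcode, whole numbers with no normalization, from a 10x 3' kit per the labels' protocols. Cell Ranger 7.0.0 and build mm10 are named in the submitters' processing notes, and the matrix headers carry software version 3.0.2. How barcodes were called as cells was not given in the sources used here; all held at least 500 UMIs. Of 2783 Tom+ and 13551 Tom- barcodes, 1893 and 10595 passed the filter, and 1741 and 9919 were used. Doublets were kept; Scrublet called 10 of 1893 Tom+ cells (0.528%) and 690 of 10595 Tom- cells (6.51%), and leaving them out is an alternative.

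Counts were summed per set and library, scaled to CPM and compared as log2 with 1 CPM added. A gene was measured at 10 CPM or more in 1 library with at least 20 UMIs over both; between sets the 10 CPM were needed in the Tom- library. Ratios between libraries were called at 1.5-fold and between sets at 2-fold in both libraries. Named were the markers, tdTomato, Cdkn2a, Cdkn1a, Cxcl12, Cxcr4 and Ackr3, the 12 genes highest and 12 lowest in Tom+ over Tom- members (at least 50 CPM, a UMI in 10% of cells, no cell with over 10% of the UMIs), the 15 highest and 10 lowest between members and other fibroblasts (at least 50 CPM and a UMI in 25% of cells), the 10 highest and lowest against Dpp4 fibroblasts, and called or leading genes of each list; ribosomal, mitochondrial, haemoglobin and clone-type names and genes under 5% of their level in another cell class were left out. Of the 24 genes chosen by ratio 1 is not reported here, though counts over the 24 include it. A few others are named as sub-cluster genes, chosen after their values were seen. Members and gene lists were chosen with earlier results of these data known.

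Sub-clusters were made by Leiden clustering at resolution 0.5 (1000 variable genes, 20 components, 15 neighbours). The calculation was tested on simulated data. Python 3.11.15, scanpy 1.11.5, numpy 2.4.6, scipy 1.17.1 and igraph 0.11.9 were used, with R 4.3.3 and edgeR 4.0.16 for TMM scaling factors only. Promoter letters are from RefSeq, where 3 of 7 genes looked up were found.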

Additional observations from a re-analysis of the deposited data

Results flagged for a closer look

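For 3 of the 24 genes chosen by their ratio, another fibroblast set had a Tom+ over Tom- ratio on the other side of 1 from that of members, with an interval that left out 1. In Dpp4 fibroblasts other genes too had ratios on the other side of 1, with intervals that held it. In other fibroblasts all of the 24 except F3 and Wnt4 had a ratio on the same side of 1 as in members. Dner, for example, had 4.18 (3.42 to 5.08) there, Matn2 2.15 (2.03 to 2.28) and Asz1 0.340 (0.294 to 0.391). The intervals of Smoc2, Svep1 and Sfrp4 held 1 there. The difference between sets was not tested. F3, which encodes tissue factor, had a ratio of 1.83 (1.70 to 1.96) in members and 0.632 (0.570 to 0.699) in other fibroblasts, or 0.837 (0.752 to 0.929) without their mesothelial-like cells. Cxcl12 had 1.73 (1.67 to 1.80) in members and 0.679 (0.457 to 0.974) in Dpp4 fibroblasts, or 0.821 (0.549 to 1.19, which holds 1) without mesothelial-like cells, from 29 and 16 Tom+ cells. Wnt4 had 0.422 (0.358 to 0.495) in members, 1.34 (1.29 to 1.40) in other fibroblasts and 1.34 (1.09 to 1.63) in Dpp4 fibroblasts. Without mesothelial-like cells Wnt4 had 1.77 (1.68 to 1.87) in other fibroblasts. In Dpp4 fibroblasts without them it had 0 (0 to 0.406), with no UMI in the 16 Tom+ cells, and so lay on the same side of 1 as in members. All sets come from the same 2 libraries of 1 mouse.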

How the results depend on the processing

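No paired analysis was possible because each group is 1 library. The Tom+ share of members lay between 13.0% and 14.5% under 6 alternatives, within its interval. The 107 genes higher and 160 lower in Tom+ members had 11 alternatives, besides leaving out members that were mesothelial-like or rich in haemoglobin RNA. Only these moved a count over 1.5-fold: thinning to 2000 UMIs gave 494 and 522, and no filter on low values 529 and 718. A filter of 50 CPM gave 24 and 34, and 5 CPM added gave 70 higher. The genes higher in members than in other fibroblasts (236) were 130 with thinning, 113 with equal weight per cell and 125 without mesothelial-like cells; the 519 lower were 229 without them, and the 453 lower than in Dpp4 fibroblasts were 250. Weighting sub-clusters equally turned the log2 ratio of Gucy1a1 to -0.34, of Dner to -0.35 and of Bmp6 to -0.12; in the second clustering, added after seeing the data, Gucy1a1 was -0.38, Dner -0.11 and Svep1 -0.029. Without mesothelial-like cells in the comparison set, the log2 ratio of members over other fibroblasts turned to 1.17 for Slpi and 1.71 for Upk3b. Over Dpp4 fibroblasts it turned to 2.57 for Slpi, 1.03 for Trem2, 1.40 for Gpm6a, 2.23 for Msln and 2.22 for Upk3b. Members kept their mesothelial-like cells in this step, and Msln, Upk3b and Gpm6a helped choose the cells left out. These turns therefore follow from the choice and say nothing about members. Under the other alternatives all 24 genes chosen by ratio kept their direction, and at least 17 a 1.5-fold difference. Cdkn2a turned to -0.16 log2 without barcodes found in both libraries. Low counts limit genes such as Cdkn2a, and 29 Tom+ cells limit the Dpp4 fibroblasts.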

Other observations

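Most interferon-stimulated genes differed by less than 1.5-fold between Tom+ and Tom- members. Of 33 measured, 27 did so, 5 were at least 1.5 times lower and 1, Ifit3b, was higher, with a list median of -0.16 log2, against 0.01 for all measured genes, where 1.80% and 1.20% were called. The antiviral gene Rsad2 stood at 2.87 CPM in Tom+ members and 12.5 CPM in Tom- members, Ifit1 at 16.6 and 30.8 CPM and Isg15 at 17.4 and 28.4 CPM. In the insulin-like growth factor list the regulators Pappa2 and Stc2 stood at 17.6 and 47.7 CPM in Tom+ members, against 5.95 and 16.3 CPM in Tom- members, and the binding protein gene Igfbp3 at 59.6 and 33.9 CPM, while Igfbp2 stood at 7.98 and 23.0 CPM. Of 14 measured genes in that list 3 were higher and 2 lower.

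Dividing cells were few. Mki67, Top2a and Birc5 together had 206 UMIs in Tom+ members and 31 in Tom- members, and 2 Tom+ cells and 0 Tom- cells held at least 10 of them. The deepest of these held 106, in a cell of 54038 UMIs.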
